A study of Mus musculus with 4 samples.

Results

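The comparison described here set the epididymal fat of high-fat fed against that of low-fat fed wild type mice, gene by gene. It used every gene with a probe set that carries a single gene symbol, and where a gene had several such probe sets it was read from the brightest, by the mean of all 4 arrays. Of 18820 such genes, 11292 had a mean level at or above 5.45, the 40th percentile, and were kept. Levels are log2 of the deposited intensity, and a difference is the high-fat level minus the low-fat level on the log2 scale. Each diet had 1 array, so a difference has no replicate check, no error and no p-value, and every result is described by its size.

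The series holds 4 gene arrays of epididymal adipose tissue, the abdominal fat pad of male mice that lies against the epididymis. The wild type arrays were of C57BL/6 mice given a diet with 10 kcal% fat (low-fat array) or 45 kcal% fat (high-fat array) for 18 to 19 weeks, after chow up to an age of 10 to 11 weeks. The other 2 arrays were of CD1d-null mice, backcrossed to C57BL/6J for 10 to 12 generations, on the 10 kcal% diet, and are called KO array 1 and KO array 2. Each group's RNA was a pool of 4 to 6 mice, so animals cannot be compared within a group, and whether both KO arrays came from the same pool of mice is not given in the labels.

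White fat stores triglyceride in large adipocytes and takes up and releases fatty acids under the control of insulin. When a fat pad expands in obesity, macrophages gather around stressed or dying adipocytes, take up their lipid and degrade it in lysosomes. These lipid-associated macrophages carry the surface integrin CD11c and the lipid-sensing receptor TREM2, and their appearance is the best known change of epididymal fat in obese mice.

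The fat pad labels were borne out by the adipocyte markers. Adipoq, Plin1, Cidec, Fabp4 and Pparg had levels between 11.46 and 13.27 on both wild type arrays. Lcn5, a lipocalin secreted by the epididymis, had a low-fat level of 11.34 and a high-fat level of 4.32, so the low-fat pool also held a transcript known from the epididymis. In a bulk sample, fewer cells of a type and less RNA per cell cannot be told apart.

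By their labels the KO arrays share genotype and diet, and the series has no other arrays of 1 kind to show the spread between arrays. Their difference was wide. KO array 2 was at least 1.5-fold higher than KO array 1 for 1674 genes (14.8% of those kept) and lower for 503 (4.45%). KO array 2, although labelled low fat, lay nearer to the wild type high-fat array (Pearson's r = 0.981 over the 11292 genes kept; genes are no independent replicates) than to KO array 1 (r = 0.943). KO array 1 lay nearer to the wild type low-fat array (r = 0.970). The wild type arrays gave r = 0.949. Whether KO array 2 held fat of the diet its label gives was not tested, so the KO pair can stand for spread between arrays only as far as that label holds. No KO array enters the diet difference, and the difference of the KO pair (KO array 2 minus KO array 1) is given beside the main results.

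Between the wild type arrays, 872 genes (7.72% of the genes kept) were higher with high fat by 1.5-fold or more and 431 (3.82%) lower. At 2-fold the counts were 274 higher (2.43%) and 157 lower (1.39%). At 4-fold they were 35 and 55, and at 8-fold 13 and 31, so on these counts the largest differences were mostly on the lower side. Many of those lower genes had a high-fat level under that array's median over all probe sets. Among the 10454 kept genes at or above that median on both arrays, 211 were higher and 64 lower at 2-fold. The median difference of all genes kept was 0.05, and the central 95% ran from −0.71 to 0.99. Olfactory and vomeronasal receptor genes, which sensory neurons of the nose use, served as a gauge of differences near the bottom of the range. Over 1155 of them the median was −0.03, the central 95% ran from −0.40 to 0.31, and 3 were at least 1.5-fold higher and 3 lower. Their median low-fat level was 3.93, under the filter, so they do not gauge the weak genes that were kept. In the 2823 kept genes with the lowest mean levels (5.45 to 6.73) the central 95% ran from −1.12 to 1.13. Of these 15.2% were at least 1.5-fold apart, against 10.0% to 10.7% in the groups of higher level. Where a level lay under its array's median over all probe sets (5.70 for low fat and 5.68 for high fat), the difference is read as a lower bound.

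The largest upward differences included many genes known from lipid-handling macrophages, and the KO pair differed in them by similar amounts. Atp6v0d2, a macrophage and osteoclast form of a lysosomal proton pump subunit, had a low-fat level of 6.28 and a high-fat level of 10.64, and was at 5.23 and 10.17 on KO arrays 1 and 2. Mmp12, the macrophage elastase, was at 7.01 and 11.28, and at 6.59 and 10.49 on the KO arrays. Gpnmb, a membrane glycoprotein of foamy macrophages, was at 8.12 and 11.59, with KO levels of 7.44 and 11.21. For these 3 genes the low-fat level was nearest to that of KO array 1 and the high-fat level nearest to that of KO array 2.

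Of the 35 genes with a diet difference of 4-fold or more upward, 35 were also at least 1.5-fold higher on KO array 2 than on KO array 1, and 28 at least 4-fold. Gene by gene over these 35, KO array 2 was a median of 0.41 below the high-fat array, and KO array 1 a median of 0.29 below the low-fat array. Further genes among the 20 with the largest upward difference and both levels at or above the median were Il7r, the interleukin-7 receptor (difference 3.11, KO pair 3.08), Adam8, a metalloprotease of myeloid cells (3.09 and 2.91), and Nceh1, which hydrolyses cholesteryl esters in macrophages (2.30 and 2.14). Oxtr, the oxytocin receptor, was at 7.49 and 10.05 (KO pair 2.59), and Slc5a7, the choline transporter, at 7.23 and 9.85 (KO pair 2.97). Rnf128, a ubiquitin ligase, was the member of these 20 with the largest gap between both measures, at 2.09 against 1.06. Trdn (3.06) is read by 19 probe sets whose differences ran from 0.45 to 4.70, so its size depends on the probe set. Gpr50, an orphan receptor related to the melatonin receptors, had a low-fat level under the median (4.33) and a high-fat level of 10.24, at least 23.3-fold higher, with KO levels of 3.89 and 10.06.

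**Figure D1:**
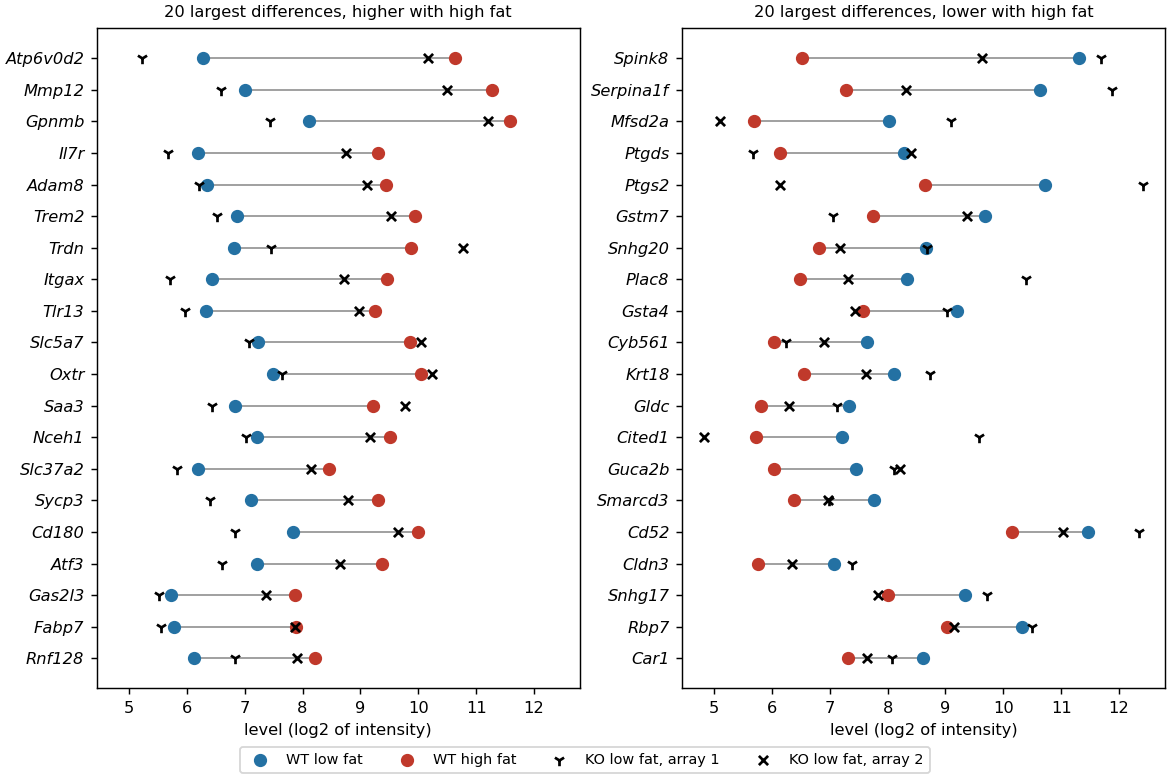
Levels (log2 of intensity, horizontal axis) of the 20 genes with the largest upward and the 20 with the largest downward difference, among genes at or above the array median on both wild type arrays. Circles are the wild type arrays joined by a line, and the 3-armed and x marks are KO arrays 1 and 2; Mmp12, for example, runs from 7.01 to 11.28 with KO levels of 6.59 and 10.49.

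Of the 872 higher genes, 680 (78.0%) were also at least 1.5-fold higher on KO array 2, which is 40.6% of the genes higher there, while 173 (19.8%) were under 1.5-fold apart and 19 (2.18%) were lower. Of the 431 lower genes, 218 (50.6%) were also lower on KO array 2, which is 43.3% of the genes lower there, 165 (38.3%) were under 1.5-fold apart and 48 (11.1%) were higher. The diet difference was the larger of both in 3890 genes (34.4%). Across the 11292 genes the diet difference and the KO pair had r = 0.517, given as a description, since all 4 arrays were summarized together.

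**Figure D2:**
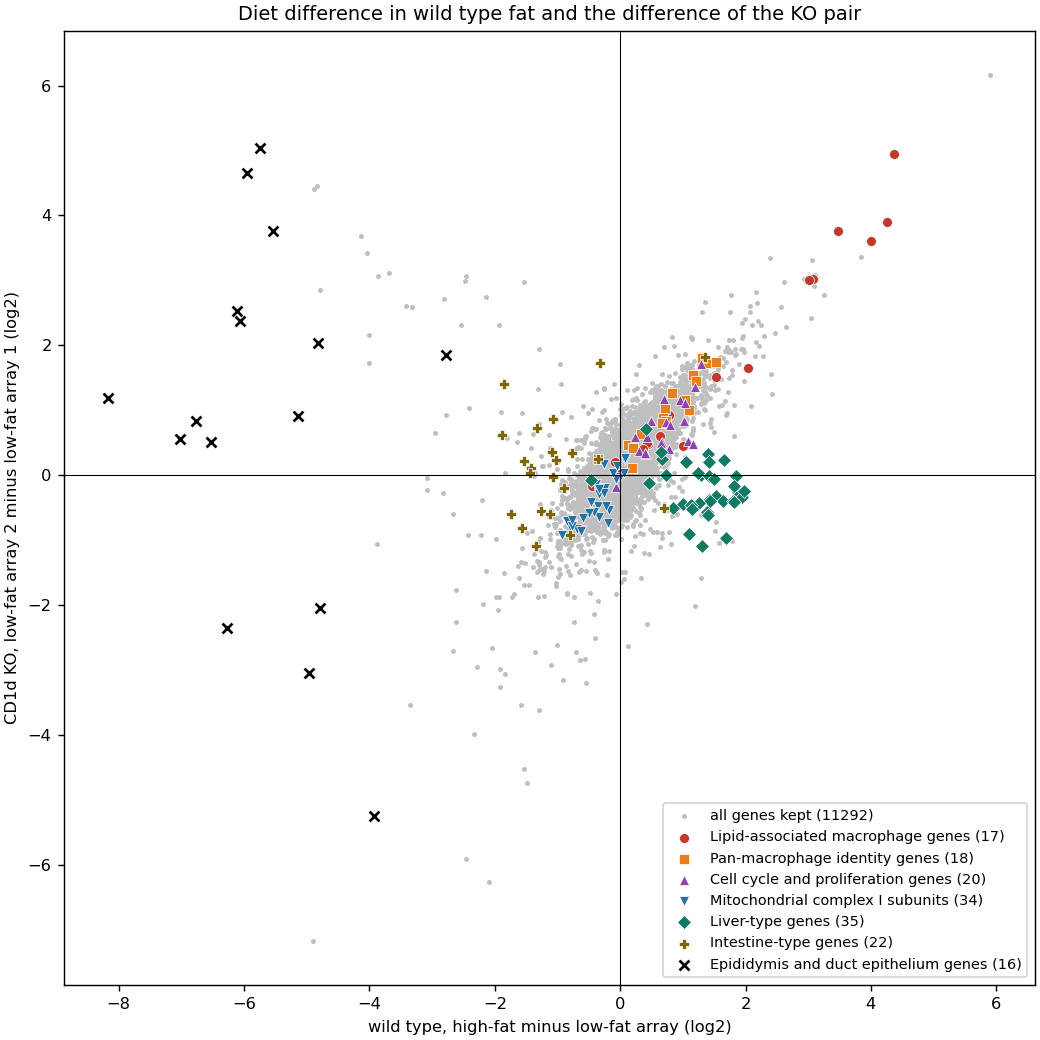
Difference of the wild type arrays (high-fat minus low-fat, log2, horizontal axis) against the difference of the KO pair (KO array 2 minus KO array 1, log2, vertical axis) for 11292 genes, with members of 7 lists marked. Macrophage, cell cycle and complex I genes lie near the diagonal, liver-type genes lie to the right at a KO pair median of −0.26, and epididymis genes lie far to the left and spread from top to bottom.

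Gene lists show which parts of the macrophage programme these were. The lipid-associated macrophage list had 11 of 17 members higher by 1.5-fold or more and 0 lower, with a median of 0.996, against 10 and 0.93 in the KO pair. Trem2 was at 6.86 and 9.94 (KO arrays 6.52 and 9.53), Itgax, which encodes CD11c, at 6.43 and 9.45 (5.72 and 8.72), and Lgals3, the lectin galectin-3, at 10.42 and 11.95 (10.28 and 11.80). Cd9, a tetraspanin of the same cells, was at 8.05 and 9.04, with a smaller KO pair difference of 0.44. The members under 1.5-fold apart included the fatty acid binding protein gene Fabp5 (0.43), the acid phosphatase gene Acp5 (−0.08) and the apolipoprotein gene Apoc1 (−0.45).

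Pan-macrophage genes were higher as a group, with 12 of 18 at least 1.5-fold higher, 0 lower and a median of 0.72, against 13 and 0.94 in the KO pair. Cd68, a lysosomal glycoprotein of macrophages, was at 10.09 and 11.61 (KO arrays 9.53 and 11.28), and Adgre1, which encodes F4/80, at 8.83 and 10.22 (8.23 and 9.95). Genes of resident, perivascular-type macrophages gave 0 of 18 past 1.5-fold and a median of −0.04, which became 0.01 over 20 genes with no filter on low signal. Timd4, a phosphatidylserine receptor of resident macrophages, was at 6.89 and 6.50, Lyve1 at 9.13 and 9.02, and the mannose receptor gene Mrc1 at 9.54 and 10.11. On the KO pair the resident list had 6 of 18 higher and a median of 0.31.

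Lysosomal genes followed in part. Of 22 cathepsins and other lysosomal hydrolases, 8 were at least 1.5-fold higher and 0 lower (median 0.48), against 13 higher in the KO pair (median 0.61). Ctss, the cathepsin that trims the MHC class II chaperone, was at 8.47 and 10.31, and Ctsk, a collagen-cutting cathepsin, at 7.77 and 9.53. Lipa, lysosomal acid lipase, which frees cholesterol and fatty acids from ingested lipid, was at 9.91 and 11.56, with KO levels of 9.59 and 11.28. Ctsd, the main aspartic protease of lysosomes, was at 12.57 and 12.77. Of 15 proton pump subunits 4 were higher and 0 lower (median 0.21; KO pair 6 higher, median 0.52), led by Atp6v0a1 (1.17), Atp6v1a (1.07) and Atp6v1b2 (1.03). The transcription factor genes that drive lysosome formation were under 1.5-fold apart, with Tfeb at 0.37, Tfe3 at 0.32 and Mitf at 0.40.

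Lysosome genes are known for the palindrome CACGTG near their starts, the core of the element that TFEB and its relatives bind, so the RefSeq promoters (GRCm38.p6, 250 bases before to 50 after each start, both strands) were searched for it. Of 53 kept genes of the lysosomal lists 44 had a promoter, and 16 of them (36.4%) held CACGTG, against 8.09% of the promoters of 27025 genes. The longer form TCACGTGA was in 8 of 44 (18.2%), against 1.12% of all. Of the 12 lysosomal genes with a promoter that were at least 1.5-fold higher, 4 held CACGTG, and a relation of the diet difference to this match was not tested. The windows below show it for a pump subunit, a hydrolase that was higher and a hydrolase that was not, each 5′ to 3′ on the gene's strand with every match in capitals.
Atp6v1a: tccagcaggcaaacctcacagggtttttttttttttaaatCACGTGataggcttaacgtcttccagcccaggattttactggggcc
Gla: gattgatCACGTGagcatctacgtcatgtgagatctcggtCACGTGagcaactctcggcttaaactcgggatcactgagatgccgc
Ctsa: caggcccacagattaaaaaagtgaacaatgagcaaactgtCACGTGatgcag
They lie at chr16:44139345-44139430 (minus strand), chrX:134601154-134601239 (minus strand) and chr2:164833721-164833772 (plus strand). Gla, alpha-galactosidase A, was at 7.30 and 8.75, and Ctsa, the protective protein of lysosomal sialidase, at 11.04 and 11.48. A match describes the letters in the window and is not a binding site.

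Receptors and effectors of phagocytes were higher together. Of 6 NADPH oxidase genes 5 were at least 1.5-fold higher (median 0.84, with 5 and 0.89 in the KO pair), and 4 were after median centring or quantile normalization. Cybb, the catalytic subunit gene of the phagocyte enzyme that makes superoxide, was at 9.47 and 10.90. Among the 5 was Nox4 (5.99 and 6.80), which is not a subunit of the phagocyte enzyme. Of 12 Fc receptors and adaptors 6 were higher (median 0.77; KO pair 10, median 0.93), among them the adaptor genes Tyrobp (1.01) and Fcer1g (0.96), and of 9 C-type lectin and scavenger receptors 5 were (median 0.68; KO pair 6, median 1.22), among them the scavenger receptor gene Msr1 (1.39). Of 9 Toll-like receptor genes 4 were higher and 0 lower (median 0.53; KO pair 6, median 0.97), and of 5 genes of their partners, listed with them, the Cd180 and Ly86 genes were (2.16 and 1.16). The nucleic acid sensors Tlr13, Tlr8 and Tlr7 had differences of 2.93, 1.56 and 1.16, while Tlr4, the endotoxin receptor, was at 0.05. Tlr7 and Tlr8 are neighbours on the X chromosome. Several of these families hold near-identical copies, such as Clec4a2 and Clec4a3, whose probes may share signal.

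Inflammatory mediators were mixed. Of 8 inflammasome and interleukin-1 genes 5 were at least 1.5-fold higher (median 0.66; KO pair 4, median 0.59), including the inflammatory caspase gene Casp1 (6.28 and 7.58) and the interleukin-1 antagonist gene Il1rn (5.16, under the median, and 7.05). Of 18 chemokines 5 were higher and 1 lower (median 0.08; KO pair 7 and 0, median 0.15). Ccl2, which draws monocytes, was at 7.79 and 8.82 (KO arrays 6.81 and 8.48), its receptor gene Ccr2 at 7.71 and 8.46, and Ccl3 at 5.48, under the median, and 7.09. Cxcl14 was lower, at 6.57 and 5.91. Of 13 complement genes the receptors C3ar1 (1.68) and C5ar1 (1.14) led, with 4 higher and 1 lower (median 0.22; KO pair 6 and 0, median 0.42). In prostanoid synthesis Hpgds, the prostaglandin D2 synthase of macrophages and mast cells, was at 6.46 and 8.43, with KO levels of 5.92 and 7.82.

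Lymphocyte lists had few kept members, so their counts past 1.5-fold rest on a few genes. Among all genes kept, 7.72% were higher and 3.82% lower by 1.5-fold or more. Of 6 T cell genes Il7r alone was past it (KO pair 3 higher), and the T cell co-receptor subunits Cd4 (−0.22) and Cd8b1 (−0.34) were slightly lower. Of 8 B cell and plasma cell genes 3 were past it, the antibody genes Jchain (−1.27) and Ighm (−1.12) lower and the plasma cell syndecan gene Sdc1 (1.03) higher. None of the 8 CD1d and natural killer T cell genes was higher, and Gata3 was lower, at 7.22 and 5.31, under the median, with KO levels of 8.46 and 5.20. With that high-fat level set to the median its difference was −1.55. Its highest level was on KO array 1, of CD1d-null mice, and whether it reflects natural killer T cells was not tested. Cd1d1, which encodes the lipid-presenting molecule the KO mice lack, was at 11.80 on both wild type arrays. Of 17 interferon response genes 4 were higher (median 0.37; KO pair 3, median 0.32), the farthest apart being Ifit1 at 1.54-fold, and 0 were past 1.5-fold after median centring and 2 after quantile normalization. Of the 15 MHC class II and dendritic cell genes 2 were higher (KO pair 8), including the transcription factor gene Irf8 (0.94).

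Proliferation genes were higher on the high-fat array, with 13 of 20 at least 1.5-fold higher, 0 lower and a median of 0.71, against 11 of 20 and 0.59 on the KO pair. Mki67, the proliferation marker, was at 5.88 and 7.17 (KO arrays 5.22 and 6.93), the mitotic kinase gene Aurkb at 5.85 and 7.05, and the cyclin gene Ccna2 at 6.12 and 7.16. Mcm5, a subunit of the replicative helicase, was at 5.68, under the median, and 6.85, against 5.73 and 6.21 on the KO arrays. Pcna, the replication clamp, was at 9.67 and 10.40. The low-fat levels of Top2a and Kif11 lay under the median, and with those set to the median their differences were 0.84 and 0.49, so Kif11 was then under 1.5-fold. With all such levels set to the median, 11 of the 20 were higher. As the mean over probe sets, the difference of Top2a was 0.39 (3 probe sets) and the difference of Kif11 was 0.61 (2).

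Mitotic genes often carry TTTGAA close to the start, the element through which they are held silent outside division. It was in 8 of 16 promoters of these genes, against 20.2% of all promoters, and in 6 of the 10 that belong to genes at least 1.5-fold higher. The windows of Mki67, Cdk1, Top2a and Kif11 are shown as the plainest examples, with every match, or its reverse complement TTCAAA, in capitals.
Mki67: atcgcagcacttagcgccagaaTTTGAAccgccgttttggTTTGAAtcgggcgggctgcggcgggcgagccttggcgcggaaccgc
Cdk1: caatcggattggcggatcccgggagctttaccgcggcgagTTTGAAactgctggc
Top2a: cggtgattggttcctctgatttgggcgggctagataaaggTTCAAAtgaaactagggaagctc
Kif11: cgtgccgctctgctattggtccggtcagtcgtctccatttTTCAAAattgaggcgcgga
In order they lie at chr7:135716432-135716517 (minus strand), chr10:69352913-69352967 (minus strand), chr11:99024190-99024252 (minus strand) and chr19:37376323-37376381 (plus strand) of GRCm38.p6. The match nearest to the start ends 92, 9, 17 and 13 bases before it. In the lysosomal lists 18.2% of promoters held TTTGAA, and 5 of the 12 of genes that were higher. Again a match only describes the letters.

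Of 18 adipocyte identity genes 2 were at least 1.5-fold higher and 0 lower, close to the 7.72% and 3.82% of all genes kept and the same count as in the KO pair, and the median of −0.01 turned positive after quantile normalization. Higher were Gpd1, which makes glycerol 3-phosphate for triglyceride, at 11.30 and 12.25, and Dgat2, which completes the triglyceride molecule, at 12.29 and 12.90. Of 13 enlargement markers 5 were higher and 1 lower (median 0.38; KO pair 6 and 1, median 0.56), and under either scaling 3 were higher. Lep, the leptin gene, was at 11.85 and 12.85 (KO arrays 11.97 and 12.93), Mest at 11.85 and 12.76, and Sfrp5, a secreted Wnt antagonist, at 10.77 and 11.81 (10.46 and 11.74). Bmp3 was at 8.86 and 9.47, while the KO arrays differed by 0.02. Ppp1r1a, a protein phosphatase inhibitor, was lower, at 9.63 and 8.75.

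Fatty acid synthesis genes went both ways. Of 17, Scd2, a stearoyl-CoA desaturase, was higher, at 10.76 and 12.10 (KO arrays 10.64 and 12.19), and 3 were lower. These were the acetyl-CoA carboxylase genes Acaca (11.31 and 10.55) and Acacb (9.79 and 9.16), which make malonyl-CoA, and the polyunsaturated fatty acid desaturase gene Fads2 (9.95 and 9.10). Fasn, fatty acid synthase, was at 12.63 and 12.64, and Scd1 at 13.88 and 13.81. In triglyceride handling Mogat1 (−0.96) and the lipolysis inhibitor gene G0s2 (−0.75) were lower, and Agpat2 (0.63) and Mogat2 (0.71) higher. Of 16 fatty acid oxidation genes 1 was past 1.5-fold, Cpt1a, the gate of mitochondrial fatty acid import, at 9.89 and 10.60. Insulin signalling and glucose handling genes gave 0 of 24 past 1.5-fold (median 0.14), and the lowest difference was at the insulin receptor gene Insr, 10.42 and 9.89.

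Cholesterol synthesis genes were higher in part, with 6 of 17 at least 1.5-fold higher and 0 lower (median 0.50; KO pair 6 and 0, median 0.48), and 3 of 17 were after median centring or quantile normalization. The late-pathway genes Hsd17b7 (7.06 and 8.34), Dhcr7 (6.63 and 7.63) and Lss (7.59 and 8.54) led, and Hmgcs1, an early step, was at 9.98 and 10.61. Insig1, the sterol sensor that restrains the pathway, was at 10.64 and 11.59 (KO arrays 10.29 and 11.68). Sterol uptake and efflux genes other than Insig1 were under 1.5-fold apart. The sterol element TCACNCCAC was in the promoter of 1 of the 14 synthesis genes that had one, Hmgcs1, against 1.44% of all promoters, and in 2 of 44 lysosomal and 1 of 12 lipid-associated macrophage promoters. CACGTG was in 3 of the 14, which belong to Dhcr7, Hsd17b7 and Sc5d, all 3 among the higher genes. The Hmgcs1 window is shown as the known sterol-controlled gene with the match, in capitals.
Hmgcs1: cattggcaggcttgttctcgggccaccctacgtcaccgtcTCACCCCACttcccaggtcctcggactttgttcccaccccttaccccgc
This window lies at chr13:119690174-119690262 on the plus strand of GRCm38.p6.

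Respiratory chain and ribosomal protein genes were lower together by small amounts, and by like amounts in the KO pair. Of 34 complex I subunit genes 0 were at least 1.5-fold higher and 9 lower (median −0.34, KO pair −0.35), and 31 of 34 were below 0. Ndufa1 was at 8.59 and 7.66 (KO arrays 8.52 and 7.60) and Ndufa6 at 10.73 and 9.88 (10.75 and 10.03). Of 36 subunits of complexes II to V 6 were lower (median −0.34; KO pair 3, median −0.29), led by the ATP synthase subunit gene Atp5l (−0.84), while the catalytic subunit gene Atp5b was at 12.57 and 12.68. Citric acid cycle and branched-chain amino acid genes, which work in the same organelle, gave 0 of 24 past 1.5-fold (median −0.07). Of 26 small ribosomal subunit genes 5 were lower (median −0.40; KO pair 9, median −0.45), with Rps27 at −0.96 and Rps29 at −0.93, and of 40 large subunit genes 1 was (median −0.22; KO pair 6, median −0.28), so these lists had the direction of the respiratory chain.

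**Figure D3:**
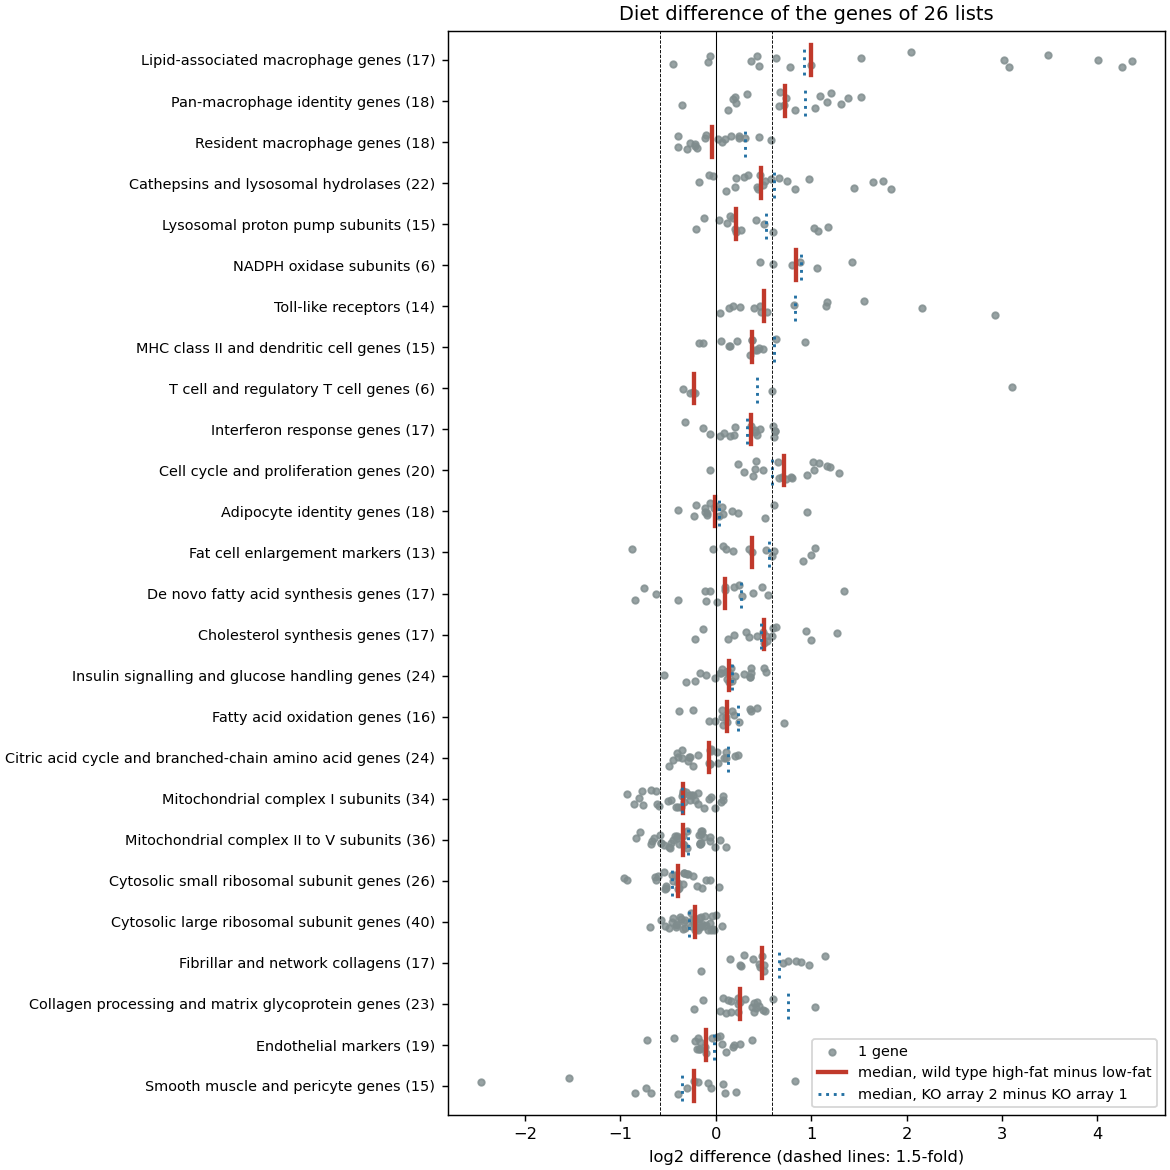
Difference (high-fat minus low-fat, log2, horizontal axis) of each kept gene of 26 lists as a grey point, with the list's median as a red bar and the median of the KO pair as a dotted blue bar; dashed lines mark 1.5-fold and the number of genes stands beside each list. Lipid-associated and pan-macrophage, lysosome, proliferation and collagen medians lie right of 0, those of complex I and of both ribosomal subunits left of 0. The resident macrophage median lies at −0.04.

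Matrix genes were higher in part, and more of them in the KO pair. Of 17 collagens 6 were at least 1.5-fold higher and 0 lower (median 0.49, KO pair 0.66). The 3 chains of collagen VI, the meshwork around adipocytes, were higher, with Col6a1 at 8.91 and 9.89, Col6a2 at 9.33 and 10.23 and Col6a3 at 8.29 and 9.05. The main fibrillar chains Col1a1 (0.49) and Col3a1 (0.45) were not past 1.5-fold. Collagen processing and matrix glycoprotein genes gave 2 of 23 higher (median 0.25), near the 7.72% of all genes kept. In the KO pair 14 of 23 were higher (median 0.76), where 14.8% of all genes kept were. The gelatinase gene Mmp2 was at 9.45 and 10.44, the inhibitor gene Timp1 at 5.85 and 7.31, and the other gelatinase gene Mmp9 was lower, at 7.57 and 6.92. Among progenitor genes Pdgfra was at 8.71 and 9.38, while Dpp4 (−0.07) and Pi16 (−0.34), which mark the most immature fibroblasts, were under 1.5-fold apart. Of 19 endothelial genes 1 was past 1.5-fold, Gpihbp1, which anchors lipoprotein lipase in capillaries, at 9.80 and 9.07 (10.06 and 9.23).

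Smooth muscle, epithelial and prostanoid genes include some that differed more between the KO arrays than between the diets. Of 15 smooth muscle and pericyte genes 5 were lower with high fat and 1 higher (median −0.23, KO pair −0.36). Lmod1 was among the 5, but with its high-fat level, under the median, set to it, the difference was −0.23, under 1.5-fold. Cnn1, a calponin of contractile smooth muscle, was at 8.05 and 5.59, under the median, and at 11.03 and 5.12 on KO arrays 1 and 2. Ptgs2, the inducible cyclooxygenase, was at 10.72 and 8.64, against 12.41 and 6.14. Ptgds, a prostaglandin D2 synthase of the lipocalin family, was at 8.28 and 6.14, against 5.67 and 8.41, the opposite order. Of 13 mesothelial markers 0 were higher and 4 lower (median −0.25), against 6 higher and 4 lower in the KO pair. The 4 were genes that other epithelia also use, the keratin genes Krt18 (8.11 and 6.55, against 8.74 and 7.62), Krt8 (8.76 and 7.48) and Krt19 (7.94 and 7.10) and the cadherin gene Cdh1 (6.13 and 4.64, under the median). Msln (6.91 and 7.10) and Upk3b (9.35 and 9.10) were under 1.5-fold apart. Mfsd2a, a lysophospholipid transporter, was at 8.03 and 5.69, against 9.09 and 5.10.

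Epididymal genes made up the far lower end. Of the 34 listed epididymis and duct epithelium genes with a probe set 16 passed the filter, several only through the array where they were high, so that their 16 lower values (median −5.85) are in part fixed by the filter. Over all 34, with no filter, 21 were lower and 0 higher (median −2.12). Spint4, a protease inhibitor, was at 11.35 with low fat, 3.19 with high fat and 3.25 and 4.43 on KO arrays 1 and 2, and the high-fat level, under the median, makes the difference at least 51.2-fold. Adam7, a sperm-surface metalloprotease-like gene, was at 9.35 and 3.60, against 3.68 and 8.71. Spink8, a further protease inhibitor, was above the median on all 4 arrays, at 11.30 and 6.52, against 11.68 and 9.63. The members thus had no common order over the 3 arrays labelled low fat: on the KO pair 10 of the 16 were at least 1.5-fold higher and 4 lower. Without the epididymis and duct lists, 871 genes were higher by 1.5-fold or more and 410 lower. The part of this tissue in the other results was not tested.

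The diet differences that the KO pair did not share were of another kind. Of the 431 genes at least 2-fold apart, 63 were under 1.5-fold apart between the KO arrays, 33 of them higher and 30 lower with high fat. With levels under the median set to it, 25 and 18 of these were still 2-fold apart. Of the 33, 24 were in a list of liver-type genes that was put together after these values were seen, so the count in part restates that choice. Mcm5 and Kif11 of the cell cycle list, both with low-fat levels under the median, were also among the 33. Of the 30 lower genes, 10 were in lists of intestine-type and antibody genes made in the same way, and Lcn5 and Spint5 were in the epididymis list.

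Of 35 kept liver-type genes, 32 were higher with high fat by 1.5-fold or more and 0 lower (median 1.40), against 1 higher and 4 lower in the KO pair (median −0.26). With levels under the median set to it, 30 of the 35 were higher (median 1.31). Over all 44 with a probe set, with no filter, 37 were higher and 0 lower (median 1.25). For 31 of the 35 the high-fat array had the highest level of the 4 arrays. Alb, serum albumin, was at 10.92 and 12.20, and at 11.24 and 11.25 on KO arrays 1 and 2. Ttr, the thyroxine and retinol carrier transthyretin, was at 8.84 with high fat, 1.84 above the low-fat level, against 7.44 and 7.43. The bile acid uptake transporter gene Slc10a1, a marker of hepatocytes, was at 5.05, under the median, and 6.99, against 5.65 and 5.32. Gene by gene, the median difference from the low-fat array was 0.61 for KO array 1 and 0.36 for KO array 2. On the low-fat array 13 of the 35 lay under the median, on the high-fat array 0. Cyp2e1, which adipocytes also express, went the other way, at 13.16 and 12.70.

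These genes overlap the acute phase list. Of its 12 kept members 8 were at least 1.5-fold higher (median 1.19, KO pair 0.28), and 5 of the 8 were also in the liver-type list: Hpx, Fgb, Fgg, Serpina1b and Itih4. Hpx, the heme-binding hemopexin, was at 6.51 and 8.16, against 7.02 and 7.25, and Fgb, a fibrinogen chain, at 6.75 and 8.18, against 7.58 and 7.56. Of the 7 members outside the liver-type list 3 were higher (median 0.56). These were Saa3, the serum amyloid A form made by macrophages and adipocytes, at 6.83 and 9.22 (KO arrays 6.43 and 9.78), haptoglobin (Hp), which fat itself secretes, at 12.08 and 12.86 (11.91 and 13.18), and Orm2 at 7.44 and 8.57 (7.50 and 8.13). The 5 were therefore past 1.5-fold between the wild type arrays and not in the KO pair, and Saa3, Hp and Orm2 were past it in both. For each of the 5, both KO arrays, labelled low fat, also lay above the wild type low-fat array. The part of liver-type RNA in the list's median was not tested.

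Intestine-type genes ran in the opposite direction. Of 22 kept members 18 were lower with high fat by 1.5-fold or more and 2 higher (the aminopeptidase gene Anpep and the fatty acid binding protein gene Fabp1; median −1.11), against 6 higher and 5 lower on KO array 2 (median 0.17), and for 19 the high-fat array was the lowest of the 4. Fabp2, the intestinal fatty acid binding protein, was at 6.78 and 4.89, against 6.84 and 7.46 on the KO arrays. Guca2b, which encodes uroguanylin, was at 7.45 and 6.03, against 8.11 and 8.21, and the goblet cell gene Zg16 at 6.95 and 5.21, against 7.98 and 7.37. On the high-fat array 15 of the 22 lay under the median, and with such levels set to it 9 of the 22 were lower (median −0.33). Of the 38 members with a probe set 22 passed the filter, several only through the arrays where they were high. The count of 18 is thus in part fixed by the filter, and the list was made after the values were seen. Over all 38, with no filter, 22 were lower and 2 higher (median −0.85). Under the 60th percentile filter 2 of 6 were lower and 2 higher (median −0.34). The antibody genes Jchain (8.65 and 7.39, against 8.28 and 8.57) and Igkc (8.53 and 7.46, against 8.58 and 8.53) were lower there too, while Igha was at 6.73 and 6.61.

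**Figure D4:**
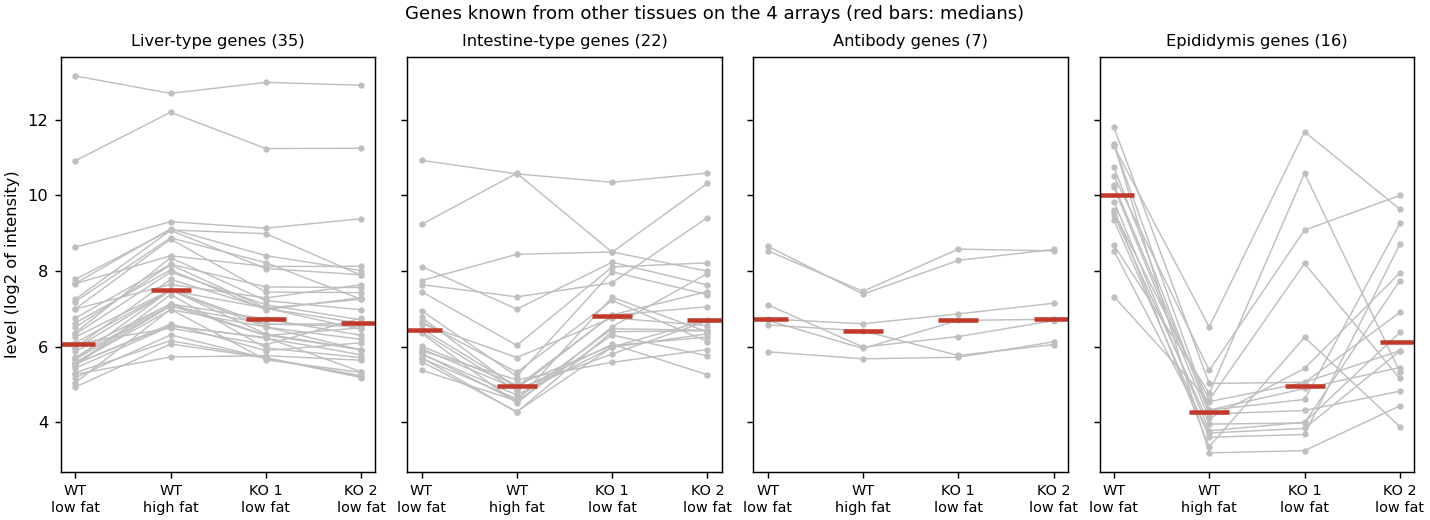
Levels (log2 of intensity, vertical axis) of genes known from other tissues on the 4 arrays (horizontal axis), with a grey line for each gene and red bars for the medians. The liver-type median is 6.08 with low fat and 7.50 with high fat, the intestine-type median 6.43 and 4.97, and the epididymis genes spread widely over the KO arrays.

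Since the KO arrays are also labelled low fat, the high-fat array was set against each of the 3 arrays with that label. It was at least 1.5-fold above all 3 for 62 genes (0.549%) and below all 3 for 64 (0.567%). Of the 62, 19 were liver-type genes, and the nearest low-fat array was passed by the widest margin for Ambp (1.41), Ttr (1.40) and Slc10a1 (1.34). Macrophage genes among them were Mmp12 (0.79 above KO array 2), Itgax (0.73), Clec7a (0.71) and Hpgds (0.61), and the immediate-early genes Atf3 (0.72) and Fos (0.59) were there as well. Of the 64 lower genes, 16 were members of the intestine-type list, 3 of the antibody list and 3 of the epididymis list, and the widest margins were those of Wfdc10 (3.71), Wfdc15b (3.13) and Spink8 (3.12). Others of these kinds outside the lists, such as Defb11 and Eddm3b, were there too. The liver-type, intestine-type and antibody lists were made after these values were seen, so their counts in part restate that choice. Of the 11292 genes kept these lists held 35, 22 and 7. The wild type low-fat array differs from the KO arrays in genotype, so this count mixes diet and genotype. It also rests on the diet label of KO array 2, which was not tested.

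Neighbouring genes were often apart together. In the RefSeq order of the genes kept, 40 of the 274 genes at least 2-fold higher (14.6%) had a gene just before or after them that was also at least 2-fold higher. Such a neighbour was found for 4.72% of all genes kept, and genes left out by the filter may lie between neighbours. On the lower side it was 36 of 157 (22.9%), against 2.66%. Many runs were of related genes, such as Cd300lb, Cd300ld and Cd300c2 on chromosome 11, Clec4a3, Clec4b1 and Clec4a2 on chromosome 6 and Ctsk with Ctss on chromosome 3 among the higher genes, while others, such as Myo1e with Ccnb2 and Spc25 with Dhrs9, were not. Among the lower genes, 6 from Spint3 to Wfdc10 and 4 beta-defensins on chromosome 2 formed the longest runs, so family members are not independent observations.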

How the data were processed

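Pooled RNA (100 ng) was turned into labelled cDNA for each array, per the labels' protocols. What the authors deposited is a linear intensity for every probe set on every array, summarized by RMA in R 2.15.0 according to the submitters' processing notes. The genome build was not given in the sources used here. Since the table was expected on a log scale and was linear, log2 was taken first; nothing else was normalized. Of 35556 probe sets, 21218 had 1 symbol, 1881 several and 12457 none. Groups follow the sample titles. With 1 array a diet no test was possible, and the number of arrays limits precision. The members, the 59 lists (1039 genes with a probe set, 870 kept) and the naming rule were chosen with earlier results of these data known. The rule took the list members farthest apart (up to 8) or needed for a list's role, the 20 highest and 20 lowest genes at or above the array median on both arrays, and 12 each way with 1 array below it. The liver-type, intestine-type and antibody lists, and genes named outside the rule, were chosen after their values were seen. Genes with near-identical copies (Clec4a, Cd300, Mup, Serpina1, Saa and defensin families) may share signal. The alternatives were other filters, folds, probe set rules and scalings. Steps were tested on simulated data (Python 3.11.15, pandas 2.3.3, numpy 2.4.6, matplotlib 3.10.9).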

Additional observations from a re-analysis of the deposited data

How the results depend on the processing

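The counts at 1.5-fold, 872 higher and 431 lower, became 565 and 214 with the 60th percentile filter and 274 and 157 at 2-fold, both by construction, since fewer genes or a larger fold entered. Among genes at or above the array median on both arrays the lower count was 285 (higher 752). Without a filter they were 1012 and 589, with the mean over probe sets 833 and 425, after median centring 719 and 518, and after quantile normalization 760 and 487; the share of higher among genes apart was 66.9%, and 58.1% and 60.9% after these scalings. An alternative chosen after seeing the data, without the liver-type, intestine-type and antibody lists, gave 838 and 409, and another, with levels under the array median set to it, 827 and 369. Of 265 named list members and leading genes past 1.5-fold, 245 stayed past it after centring, 249 after quantile normalization and 263 with the mean over probe sets, and 0 turned sign. Of 59 list medians 3 turned sign with the scaling, those of adipocyte identity genes, adipokines, and eosinophil, mast cell and neutrophil genes, which lay between −0.06 and 0.02 under the scalings. The Wolffian duct list kept 1 gene, Atp6v0d2, under the 60th percentile filter and turned from −1.36 to 4.36. Under alternatives other than scaling, the medians of the resident macrophage, T cell, triglyceride, skeletal muscle, nerve and prostaglandin lists also turned sign. The highest median reached was 1.85 for T cell genes (main −0.23), 1.14 for skeletal muscle (−0.09) and 0.55 for nerve genes (−0.14). Depth does not apply to arrays; signal near background limits the genes under the array median, and 1 array a group leaves no measure of spread between mice. No paired analysis was possible because the wild type groups have 1 array each.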

Other observations

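Core and accessory subunits of complex I, a grouping chosen after the values were seen, had like diet medians of −0.26 (6 genes) and −0.35 (28 genes), and KO pair medians of 0.00 and −0.51. The difference between them was not tested. Circadian clock genes gave 0 of 14 past 1.5-fold, with Per2 at 7.23 and 7.17. Of 18 immediate-early genes 3 were higher, with Egr2 at 5.77 and 7.20, and 1 lower, Ier3 (−0.89). Of 19 oxidative stress and hypoxia genes the glutathione transferase gene Gsta4 was lower, at 9.20 and 7.58 (KO arrays 9.02 and 7.44), Nqo1 lower at 6.60 and 5.73, and the heme oxygenase gene Hmox1 higher at 8.63 and 9.32. Unfolded protein response genes were 1 of 17 higher and 1 lower (median 0.15), against 7 of 17 higher in the KO pair (median 0.56).

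Thermogenic genes were split. Cidea (6.74 and 6.05) and Cox8b (9.66 and 8.89) were lower on the high-fat array, the proton channel gene Otop1 was at least 3.61-fold higher (5.34 and 7.55), and Ucp1 lay below the filter at 3.88 and 3.94. Slc27a2, a very long chain acyl-CoA synthetase that liver also makes, was at 6.39 and 7.67, against 7.16 and 6.54 on the KO arrays. Svs5 and Svs2, known from the seminal vesicle and named after their values were seen, were at 7.61 and 8.90 (KO arrays 6.74 and 5.16) and at 7.40 and 8.59 (5.95 and 3.94).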
